A study of Homo sapiens with 42 samples.

Results

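MOLM-13 is an established human acute myeloid leukemia (AML) cell line whose FLT3 receptor carries an internal tandem duplication, so that the kinase signals without its ligand. The comparison described here is quizartinib (AC220), an inhibitor of that kinase, against vehicle (DMSO) in cells held in hBMSC-CM, the conditioned medium of human bone marrow stromal cells, which the study took from the HS-5 stromal line and mixed in equal parts with serum-containing RPMI. The members are the 6 input libraries (total RNA before polysome fractionation) that carry these labels, 3 with 3 nM quizartinib and 3 with vehicle, of 42 libraries in the series, and cells were harvested after 12 h. The question was which messages change when FLT3 is inhibited while soluble stromal factors are present. Every culture was MOLM-13, with the genotype given as WT in the labels beside the duplication that the line carries, 1 cell line and not a patient sample, and the medium was conditioned with no stromal cell in the well. Other groups used for contrast were quizartinib (3 nM) and vehicle in regular RPMI with serum, and in hBMSC-CM everolimus (10 nM, an inhibitor of the mTOR kinase) and combo (quizartinib and everolimus at the same doses), each for 12 h with 3 input libraries. The study describes its replicates as biological, and the labels give them only numbers. The p-values and standard errors of single genes rest on a spread estimated jointly over all 42 libraries, not on the 6 members alone. Input and polysome libraries of the same culture count as independent in that estimate.

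FLT3 with the tandem duplication activates STAT5, the RAS, RAF and ERK cascade and the PI3K, AKT and mTOR pathway. Background knowledge of each branch names its readouts: PIM1, PIM2, CISH and the SOCS genes for STAT5, the ETV, EGR1, FOSL1, DUSP6 and SPRY4 genes for ERK, MYC with the genes that build ribosomes for growth, and FOXO targets such as BCL6 for loss of AKT activity. Stromal cells secrete cytokines and growth factors that reach the same pathways through other receptors.

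Total counts were 27.3, 29.6 and 19.4 M in the hBMSC-CM quizartinib libraries and 30.1, 26.2 and 36.0 M in the vehicle libraries, which did not differ beyond their spread (two-sided exact permutation p = 0.400; 3 against 3 cannot go below 0.1). Replicate 3 had the fewest genes with a count in both arms, 18546 against 20697 and 20725 in the other vehicle libraries and 19391 against 20981 and 21246 in the other quizartinib libraries, of which quizartinib replicate 3 also had the lowest depth. Replicate 1 held more mitochondrial reads in both arms (8.02% with quizartinib and 7.05% with vehicle, against 3.17% to 3.79% in the other 4 libraries). Samples with the same number deviated from their group means together, so list counts from a fit that blocks on the replicate number are given where they differ. Where the block is not named, counts of called genes, fold changes, standard errors (SE) and adjusted p-values come from a fit that leaves this pairing out. Of 13 AML blast markers 12 passed the filter on low counts, and their summed level was 3028 to 3433 CPM (counts per M counts in the library, for single genes scaled by TMM factors) with quizartinib and 2366 to 2926 with vehicle (exact permutation p = 0.1). Of 30 stromal and fibroblast markers, 21 were under 1 CPM in all 6 libraries and 11 had no count at all, among them COL3A1, LUM, POSTN, CXCL12 and VCAM1. Of 19 B, T and NK cell markers 11, and of 17 erythroid and megakaryocyte markers 16, were under 1 CPM in all 6. The summed levels of these lists were 163 to 205 against 151 to 164 for stromal markers, 193 to 275 against 135 to 207 for lymphoid markers and 21.1 to 26.4 against 28.1 to 29.7 for erythroid markers, and their part in the results was not tested.

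Quizartinib lowered 885 genes and raised 706 in hBMSC-CM, of 12939 genes tested (12.3% called at an adjusted p under 0.05, 6.84% lower and 5.46% higher). Messages for DNA replication, nucleotide synthesis and ribosome biogenesis were among those that fell. Messages of the FOXO and growth factor withdrawal list, MHC class II and myeloid surface receptors were among those that rose. The median log2 fold change over all genes was 0.01. Values are relative to the scaled total of each library. The study reports that RNA yield dropped under quizartinib, in polysomes more than in input. A rise or fall here is thus a change in the share of messages and not in the amount per cell. In bulk libraries such as these, fewer cells that express a gene and less of its RNA per cell cannot be told apart. Values of the 3 quizartinib and 3 vehicle libraries did not overlap for 1490 of the called genes, and for 34.1% of all genes tested. With the replicate number as a block, 2678 genes were called, 1222 higher and 1456 lower, including each of the 1591. Called counts of the lists below are to be read beside the shares of all genes given above. List counts with the block are to be read beside 1222 higher and 1456 lower of 12939, since the block raised the count over all genes too. Without quizartinib replicate 1, quizartinib replicate 2 or vehicle replicate 3 the counts were 984, 932 and 929, and 586 genes (4.53% of those tested) were called in each of the 6 fits that left out 1 culture, 255 of them higher and 331 lower. Here and below, a fit that left out a library left out that input library together with the polysome library of the same culture.

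Sequence upstream of the start site is shown for genes of the groups that fell, because the same short words recur in it. DNA replication and cell cycle genes are known targets of the E2F factors, and ribosome biogenesis genes of MYC, which binds the E-box. Of 48 tested DNA replication genes, 39 had a promoter in the RefSeq table (GRCh38.p14, 250 bases before to 50 after the start), and 20 of those (51.3%) held an E2F word, TTTCGCGC, TTTGGCGC, TTTCCCGC or TTTGCCGC on either strand, against 3.33% of all 27305 promoters in the table and 5.66% of the 8943 that belong to tested genes. The E-box CACGTG was in 11 of 36 promoters of the ribosome biogenesis list (30.6%), against 7.43% of all and 10.5% of those of tested genes. It was in 23.8% for nucleotide synthesis and 15.4% for DNA replication, which also fell. For lists that rose it was in 26.9% for lysosome, 15.0% for interferon, 10.7% for FOXO and 0 of 7 for MHC class II. A high E-box share was thus not particular to lists that fell. A cell cycle homology region, TTTGAA on either strand, was in 25 of 38 promoters of the mitosis list (65.8%) against 15.4% of all and 9.61% of those of tested genes, and a CCAAT box in 30 of those 38 (78.9%) against 35.7% and 37.1%. The CCAAT box was also in 61.5% of DNA replication promoters. Among lists that rose it was in 7 of 7 promoters of MHC class II and in 30.8% of those of the lysosome list. The FOXO word GTAAACA was in 5 of 28 promoters of the FOXO list (17.9%) against 3.41% and 2.18%. Such matches describe the sequence and are no evidence of binding. No share is given for all genes called lower or higher, since 72.3% and 71.7% of them had a promoter in the table, too few for a check over those sets. In the lines that follow each run reads 5′ to 3′ along the gene's strand up to the start site (for SRM, to 3 bases before it), overlaps no annotated exon, and has the E2F word in capitals for the first 5 genes and the E-box in capitals for the last 2. MCM6 encodes a subunit of the replicative helicase, CDT1 and GINS2 help to load and to fire that helicase, CDC25A is the phosphatase that activates CDK2, E2F1 is a founding E2F factor, SRM is spermidine synthase and UTP20 is part of the machinery that processes 18S ribosomal RNA.
MCM6 (GRCh38.p14 chr2:135876444-135876603, minus strand): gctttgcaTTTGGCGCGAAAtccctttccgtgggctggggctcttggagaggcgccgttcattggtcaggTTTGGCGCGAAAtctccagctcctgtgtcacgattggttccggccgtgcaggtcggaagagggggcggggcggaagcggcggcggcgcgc
CDT1 (GRCh38.p14 chr16:88803689-88803788, plus strand): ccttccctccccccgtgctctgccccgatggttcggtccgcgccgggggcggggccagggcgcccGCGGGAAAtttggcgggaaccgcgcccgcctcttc
GINS2 (GRCh38.p14 chr16:85688955-85689054, minus strand): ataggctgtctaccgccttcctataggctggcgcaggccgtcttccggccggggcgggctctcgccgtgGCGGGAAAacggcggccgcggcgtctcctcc
CDC25A (GRCh38.p14 chr3:48188418-48188517, minus strand): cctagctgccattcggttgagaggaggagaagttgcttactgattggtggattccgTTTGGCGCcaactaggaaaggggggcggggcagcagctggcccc
E2F1 (GRCh38.p14 chr20:33686386-33686485, minus strand): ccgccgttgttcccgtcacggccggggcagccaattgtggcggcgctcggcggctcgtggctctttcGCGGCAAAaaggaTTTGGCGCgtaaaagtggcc
SRM (GRCh38.p14 chr1:11060021-11060238, minus strand): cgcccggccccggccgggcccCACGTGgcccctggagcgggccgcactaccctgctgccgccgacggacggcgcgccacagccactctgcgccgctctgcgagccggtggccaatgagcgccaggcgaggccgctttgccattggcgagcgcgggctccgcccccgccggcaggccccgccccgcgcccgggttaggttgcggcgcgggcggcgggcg
UTP20 (GRCh38.p14 chr12:101280005-101280104, plus strand): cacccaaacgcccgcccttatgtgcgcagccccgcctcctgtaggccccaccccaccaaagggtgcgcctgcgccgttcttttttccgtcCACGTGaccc
In MCM6 the words lie in overlapping pairs, the farthest starting 152 bases before the start site. In E2F1 they start 33 and 20 bases before it, in GINS2 31, in CDT1 35 and in CDC25A 44 bases before it. The E-box starts 199 bases before the start of SRM and 10 bases before that of UTP20.

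The DNA replication list was the one with the largest share of called genes among the 29 lists described. Of its 48 measured genes 34 fell and none rose, against 6.84% lower among all genes, and all 48 fitted changes were negative, from -1.89 to -0.33 with a median of -1.18 (log2; all genes 0.01). The median over the list was -1.40, -0.96 and -1.17 in the 3 pairs of libraries with the same number. The count was 23 without quizartinib replicate 1 and 42 with the replicate block. CDC45 was at 15.8, 15.2 and 18.3 CPM in the quizartinib libraries and at 57.5, 57.9 and 67.0 CPM in the vehicle libraries. All vehicle values of CDC45, which joins MCM and GINS in the replicative helicase, lay above all quizartinib values. For CDC45 the log2 fold change was -1.89 ± 0.33 (SE, n = 3 per group, adjusted p = 2.83e-04). Levels of GINS2 were 9.63, 13.4 and 14.5 CPM in the quizartinib libraries and 44.7, 34.8 and 48.8 CPM in the vehicle libraries. GINS2 fell by 1.77 on the log2 scale (SE 0.24, adjusted p = 1.05e-05). Its groups did not overlap, and GINS1, of the same complex, followed it with 12.1, 14.6 and 13 CPM against 45.8, 38.6 and 45.1 (log2 fold change -1.70 ± 0.21, adjusted p = 2.93e-06). For CDC6 the values were 15.0, 22.6 and 18.3 CPM with quizartinib and 58.3, 55.5 and 65.1 CPM with vehicle. CDC6 loads the helicase at origins. CDC6 thus had a log2 fold change of -1.68 ± 0.30 (SE, adjusted p = 3.95e-04). MCM5, a helicase subunit, was at 105, 137 and 132 CPM with quizartinib and 284, 258 and 264 with vehicle (log2 fold change -1.10 ± 0.30, adjusted p = 0.0138) and lost its call in 1 of the 6 fits that left out a library. MCM6 and E2F1, whose promoters are printed above, had fitted changes of -1.47 and -1.48, and CDT1 one of -0.79, the smallest of the 5 with an E2F word shown (log2; each called).

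Genes that start S phase and supply nucleotides fell beside them. In the G1 to S list 11 of 23 measured genes fell and none rose (median -0.68, range -1.94 to 3.11), and 7 fell without vehicle replicate 1. With the replicate block 13 fell and 1 rose (CDKN1C, an inhibitor of cyclin-dependent kinases, log2 3.22). With vehicle CCNE1 stood at 23.3, 20.3 and 35.3 CPM, and with quizartinib at 4.66, 6.59 and 9.30 CPM. Cyclin E1 partners CDK2 at the G1 to S transition. For CCNE1 the log2 fold change was -1.94 ± 0.32 (SE, n = 3 per group, adjusted p = 1.14e-04). CDC25A gave 13, 16.4 and 17.8 CPM in quizartinib replicates 1 to 3 and 50.8, 45.3 and 63.5 CPM in vehicle replicates 1 to 3. CDC25A fell by 1.76 on the log2 scale (SE 0.22, adjusted p = 3.21e-06). E2F1 was at 8.51, 10.9 and 20.9 CPM in the quizartinib libraries and at 33.1, 31.7 and 47.3 CPM in the vehicle libraries. E2F1 thus had a log2 fold change of -1.48 ± 0.30 (SE, adjusted p = 0.00117). The E2F1 values stayed apart, although quizartinib replicate 3 was the highest of its group. E2F7 (3.79, 2.54 and 2.61 against 13.4, 7.78 and 7.85 CPM, log2 -1.70) and CCNE2 (2.79, 3.53 and 1.15 against 10.2, 7.69 and 6.41 CPM, log2 -1.69, called in 4 of the 6 fits that left out a library) also fell. Cyclin D2 is a shared target of STAT5 and MYC. Levels of CCND2 were 39.2, 41.3 and 36.8 CPM in the quizartinib libraries and 69.0, 58.1 and 60.5 CPM in the vehicle libraries. For CCND2 the log2 fold change was -0.68 ± 0.16 (SE, n = 3 per group, adjusted p = 0.00525). CDK6, CDKN1B and CCND3 were not called (0.11, 0.27 and -0.07).

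Of 25 nucleotide synthesis genes 14 fell and none rose (median -0.90), and 9 fell without vehicle replicate 1 and 19 with the replicate block. For RRM2 the values were 63.0, 72.8 and 60.6 CPM with quizartinib and 245, 208 and 196 CPM with vehicle. RRM2 is the regulated subunit of ribonucleotide reductase. RRM2 fell by 1.72 on the log2 scale (SE 0.21, adjusted p = 2.93e-06). With vehicle TYMS stood at 371, 319 and 309.9 CPM, and with quizartinib at 127, 146 and 131 CPM. Thymidylate synthase makes dTMP. TYMS thus had a log2 fold change of -1.31 ± 0.15 (SE, adjusted p = 1.20e-06). PAICS gave 95.6, 129 and 134 CPM in quizartinib replicates 1 to 3 and 298, 323 and 277 CPM in vehicle replicates 1 to 3. PAICS acts in purine synthesis. For PAICS the log2 fold change was -1.32 ± 0.29 (SE, n = 3 per group, adjusted p = 0.00225). NME1, a nucleoside diphosphate kinase, is given below with the largest falls. TYMS shares exon sequence with ENOSF1 on the opposite strand, and whether strand was used in counting is not stated, so reads of such pairs cannot be told apart. PAICS and RRM2 have annotated pseudogenes that could take or lend reads.

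Of 45 measured mitosis genes 7 fell and none rose (median -0.44), against 6.84% lower among all genes, and 4 fell without vehicle replicate 1. With the replicate block 9 fell and 1 rose (CDC25B, a phosphatase that activates CDK1, log2 0.53). MAD2L1 was at 27.3, 23.8 and 21.9 CPM in the quizartinib libraries and at 68.0, 48.4 and 53.1 CPM in the vehicle libraries. MAD2L1 is the spindle checkpoint protein MAD2. MAD2L1 fell by 1.22 on the log2 scale (SE 0.20, adjusted p = 1.14e-04). The kinetochore genes SPC24 and SPC25 fell by 1.01 and 0.92 on the log2 scale, with 19.8, 19.9 and 19.4 CPM of SPC25 against 39.5, 35.5 and 36.6. PBK, a mitotic kinase, was at 8.25, 6.84 and 5.27 CPM against 23.5, 14.7 and 14.2 (log2 fold change -1.36 ± 0.39, adjusted p = 0.0191) and was called in 4 of the 6 fits that left out a library.

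Of 42 genes for ribosome biogenesis and associated with MYC, 22 fell and none rose, and every fitted change was negative (-1.64 to -0.29, median -0.79). The count was 13 without quizartinib replicate 1, 14 without quizartinib replicate 2 and 33 with the replicate block. Levels of SRM were 54.0, 60.5 and 85.6 CPM in the quizartinib libraries and 199, 167 and 258 CPM in the vehicle libraries. SRM makes spermidine. SRM thus had a log2 fold change of -1.64 ± 0.23 (SE, adjusted p = 1.33e-05). For ODC1 the values were 44.5, 50.2 and 51.9 CPM with quizartinib and 151, 132 and 136 CPM with vehicle. ODC1, ornithine decarboxylase, is the rate-limiting enzyme of polyamine synthesis. For ODC1 the log2 fold change was -1.51 ± 0.22 (SE, n = 3 per group, adjusted p = 2.16e-05). LYAR, a nucleolar protein, was at 23.2, 28.0 and 28.9 CPM with quizartinib and 67.2, 62.6 and 66.2 with vehicle (log2 fold change -1.29 ± 0.30, adjusted p = 0.00375). MRTO4, which acts in assembly of the large ribosomal subunit, was at 50.6, 70.5 and 91.5 CPM against 142, 166 and 209 (log2 fold change -1.28 ± 0.29, adjusted p = 0.00308). MYC itself was not called. With vehicle MYC stood at 605, 422 and 399 CPM, and with quizartinib at 449, 322 and 362 CPM. The groups overlapped (log2 fold change -0.33 ± 0.29, adjusted p = 0.508).

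**Figure D1:**
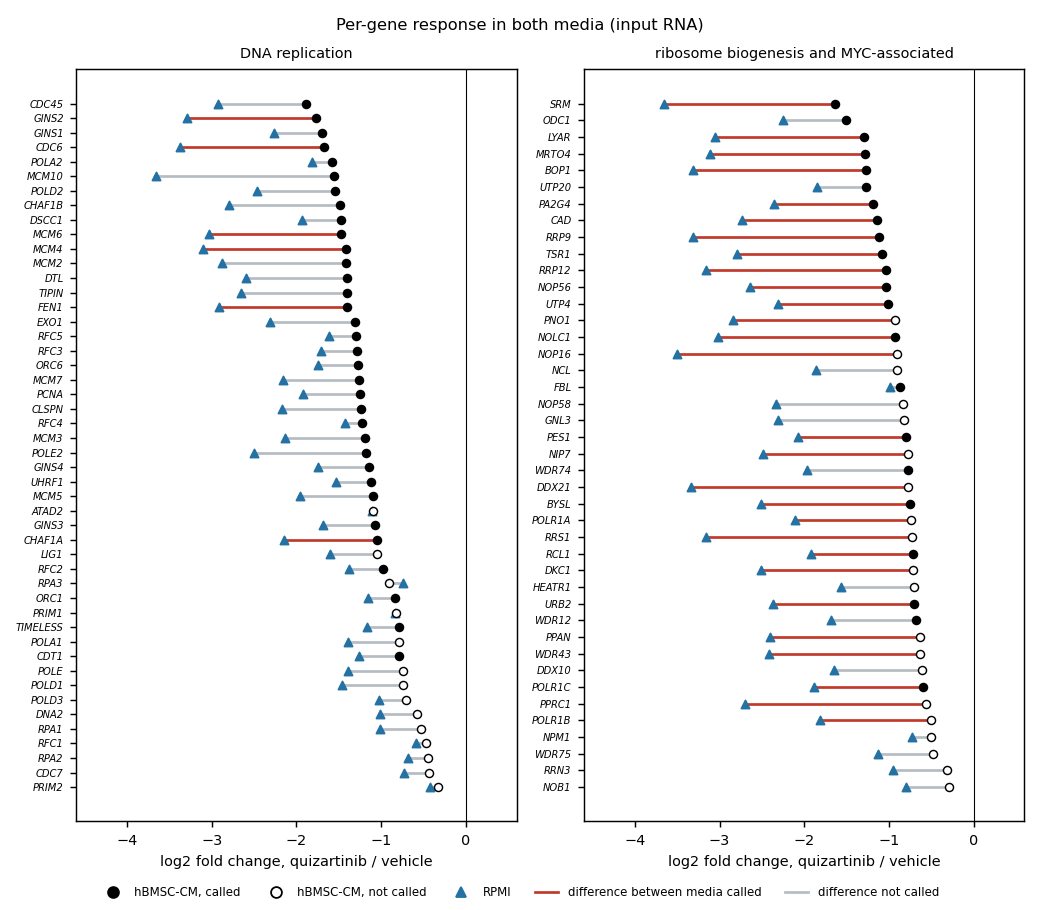
Log2 fold change of each measured gene under quizartinib (horizontal axis) in hBMSC-CM (circles, filled where called) and RPMI (triangles) for the DNA replication list (left, 48 genes) and the ribosome biogenesis and MYC-associated list (right, 42 genes). Connecting lines are red where the difference between media was called, which was so for 6 genes on the left and 28 on the right.

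Mitochondrial and metabolic genes showed smaller falls, with called counts that changed as single cultures were left out. The count over all genes changed too, from 1591 to 932 without quizartinib replicate 2 and 929 without vehicle replicate 3. Pair medians were -0.31, -0.28 and -0.66 for nuclear oxidative phosphorylation genes and -0.39, -0.40 and -0.68 for mitochondrial ribosome genes. Of 74 nuclear genes of oxidative phosphorylation 9 fell and none rose (median -0.44), against 6.84% lower among all genes. The count was 4 without quizartinib replicate 2 and also 4 without vehicle replicate 3, 19 without vehicle replicate 2, and 24 with the replicate block. ATP5MC1 gave 25.7, 33.1 and 50.5 CPM in quizartinib replicates 1 to 3 and 76.5, 88.9 and 155 CPM in vehicle replicates 1 to 3. ATP5MC1 encodes the c ring subunit of ATP synthase and has 8 annotated pseudogenes under its name. ATP5MC1 fell by 1.55 on the log2 scale (SE 0.32, adjusted p = 0.00146). CYCS, cytochrome c, was at 35.9, 49.1 and 34.5 CPM against 105, 107 and 105 (log2 fold change -1.41 ± 0.33, adjusted p = 0.00427), and 42 pseudogenes carry its name, so its value is uncertain. NDUFAB1 and COX7B fell by 1.01 and 0.95 on the log2 scale, and both lost the call in at least 1 of the 6 fits that left out a library. Of 76 mitochondrial ribosome genes 21 fell and none rose (median -0.53), led by MRPL12 (6.39, 8.38 and 16.6 against 17.5, 19.9 and 51.9 CPM, log2 -1.52) and MRPL24 (21.5, 24.5 and 42.9 against 54.0, 64.3 and 107 CPM, log2 -1.35). That count was 12 without quizartinib replicate 1, 9 without quizartinib replicate 2 and 5 without vehicle replicate 3, and 31 with the replicate block. MRPS26 and MRPS7 fell by 1.02 and 0.98. None of the 13 mitochondrially encoded genes was called (median 0.18, range -0.21 to 0.41).

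In glycolysis 5 of 24 genes fell and 1 rose (median -0.18), against 6.84% lower and 5.46% higher among all genes. LDHA was at 246, 241 and 235 CPM in the quizartinib libraries and at 589, 489 and 353 CPM in the vehicle libraries. Lactate dehydrogenase A turns pyruvate into lactate. LDHA thus had a log2 fold change of -0.99 ± 0.22 (SE, adjusted p = 0.00279). SLC16A1, a lactate and pyruvate carrier, and GPI, which makes fructose 6-phosphate, fell by 0.98 and 0.89 on the log2 scale, and the enzymes ENO1 and PGAM1 by 0.78 and 0.71. Levels of PFKFB3 were 151, 153 and 175 CPM in the quizartinib libraries and 72.7, 90.8 and 48.0 CPM in the vehicle libraries. PFKFB3 makes the activator of phosphofructokinase and went the other way. For PFKFB3 the log2 fold change was 1.18 ± 0.20 (SE, n = 3 per group, adjusted p = 2.21e-04). The count that fell was 3 without quizartinib replicate 1, quizartinib replicate 3 or vehicle replicate 2, and 10 with the replicate block. For cholesterol synthesis 4 of 23 genes fell (ACAT2 by 0.88, MVK by 0.80, PMVK by 0.65 and FDPS by 0.61 on the log2 scale) and none rose (median -0.46), with 2 without quizartinib replicate 1 or 2, 1 without vehicle replicate 3 and 7 with the block.

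In the ATF4 and amino acid response list 13 of 35 genes fell and 1 rose (median -0.45), and with the replicate block 15 fell and 2 rose. For STC2 the values were 1.12, 1.76 and 2.83 CPM with quizartinib and 10.2, 9.41 and 15.1 CPM with vehicle. STC2 is a secreted glycoprotein that ATF4 is known to induce. STC2 fell by 2.61 on the log2 scale (SE 0.46, adjusted p = 3.26e-04). With vehicle PSAT1 stood at 74.4, 61.4 and 54.5 CPM, and with quizartinib at 17.3, 22.7 and 12.0 CPM. PSAT1 makes serine. PSAT1 thus had a log2 fold change of -1.87 ± 0.30 (SE, adjusted p = 8.82e-05). CHAC1, which degrades glutathione, was at 0.578, 0 and 0.221 CPM with quizartinib and 2.68, 2.87 and 5.44 with vehicle, levels near the floor, so its fitted log2 change of -3.79 depends on the prior count. ALDH1L2, a mitochondrial folate enzyme, was at 1.45, 2.01 and 0.841 CPM against 6.42, 5.17 and 6.30 (log2 -2.04), a call made in 2 of the 6 fits that left out a library. The gene that rose was CEBPB (0.67), a factor that the list shares with the myeloid transcription factors, and it lost the call without quizartinib replicate 3, vehicle replicate 1 or vehicle replicate 3.

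Genes of a mixed list of FOXO targets and other genes of growth factor withdrawal rose in part. Of 30 genes on the FOXO and growth factor withdrawal list 10 rose and none fell (5.46% higher among all genes), with a median of 0.79 and pair medians of 0.67, 0.75 and 0.83, and 9 were called in each fit that left out a library and 15 with the replicate block. YPEL3 gave 59.2, 53.1 and 67.9 CPM in quizartinib replicates 1 to 3 and 13.4, 19.2 and 11.8 CPM in vehicle replicates 1 to 3. YPEL3 is a growth-suppressing gene of the yippee family. For YPEL3 the log2 fold change was 2.02 ± 0.28 (SE, n = 3 per group, adjusted p = 1.53e-05). BCL6 was at 22.9, 19.4 and 14 CPM in the quizartinib libraries and at 7.06, 6.22 and 1.81 CPM in the vehicle libraries. BCL6 is a transcriptional repressor. BCL6 rose by 1.90 on the log2 scale (SE 0.35, adjusted p = 4.44e-04). Levels of TSC22D3 were 35.3, 33.8 and 53.5 CPM in the quizartinib libraries and 10.1, 12.7 and 18.9 CPM in the vehicle libraries. TSC22D3 encodes the leucine zipper protein GILZ. TSC22D3 thus had a log2 fold change of 1.56 ± 0.23 (SE, adjusted p = 3.77e-05). YPEL5 had 59.1, 68.6 and 59.6 CPM against 16.2, 28.6 and 16.0 (log2 fold change 1.62 ± 0.36, adjusted p = 0.00262), and no values of these 4 genes overlapped. Of 26 p53 targets 3 rose and none fell (median 0.11), TP53INP1 (18.9, 19.9 and 10.4 against 5.87, 6.44 and 3.18 CPM), BTG2 (17.1, 13.6 and 11.6 against 5.54, 7.46 and 3.02 CPM) and TIGAR (8.61, 7.94 and 6.64 against 4.55, 6.03 and 2.13 CPM, called in 1 of the 6 fits that left out a library). With the replicate block 3 p53 targets were called lower.

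Among 15 genes of the BCL2 family, which governs mitochondrial apoptosis, 1 rose and 2 fell (median 0.01), and 2 rose and 3 fell with the replicate block. Among all genes 5.46% were called higher and 6.84% lower without the block, so counts this small do not set the family apart. For BMF the values were 150.1, 175 and 139.9 CPM with quizartinib and 24.7, 49.5 and 24.4 CPM with vehicle. BMF is a BH3-only protein that promotes apoptosis. For BMF the log2 fold change was 2.24 ± 0.33 (SE, n = 3 per group, adjusted p = 2.84e-05). With vehicle BCL2 stood at 52.2, 43.1 and 47.2 CPM, and with quizartinib at 28.0, 33.9 and 27.7 CPM. BCL2 opposes apoptosis. BCL2 fell by 0.67 on the log2 scale (SE 0.16, adjusted p = 0.00564). BID, a BH3-only protein, was at 34.5, 31.7 and 37.0 CPM against 62.7, 53.3 and 60.4 (log2 fold change -0.77 ± 0.18, adjusted p = 0.00340). BCL2L11, which encodes BIM, was at 70.2, 55.2 and 34.3 CPM with quizartinib and 41.2, 32.7 and 25.2 with vehicle. It missed the threshold (log2 0.69, adjusted p = 0.0800) and was called with the replicate block (adjusted p = 0.00834). MCL1 and BCL2L1 were not called (log2 fold change 0.18 ± 0.16, adjusted p = 0.506 and log2 fold change 0.01 ± 0.32, adjusted p = 0.991).

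Of 10 measured MHC class II genes 5 rose and none fell (median 1.37, pair medians 0.69, 1.49 and 1.14), and 7 rose with the replicate block. The other 5 of the 15 on the list were below the filter. HLA-DRA gave 5.65, 16.3 and 13.8 CPM in quizartinib replicates 1 to 3 and 1.40, 3.41 and 2.91 CPM in vehicle replicates 1 to 3. HLA-DRA is the alpha chain of HLA-DR. HLA-DRA thus had a log2 fold change of 2.21 ± 0.51 (SE, adjusted p = 0.00343). HLA-DRB1 (2.28, 8.16 and 11 against 0.817, 0.925 and 1.71 CPM, log2 2.62) has near-identical paralogs, so its reads may be split. CIITA, the master activator of the class II genes, was at 5.40, 9.16 and 11.1 CPM against 2.89, 3.48 and 3.31 (log2 fold change 1.40 ± 0.36, adjusted p = 0.00912), and HLA-DMA, a peptide loader, at 8.19, 15.5 and 16.9 against 2.89, 5.07 and 6.67 (log2 fold change 1.47 ± 0.35, adjusted p = 0.00460). HLA-DQB1 rose by 0.97 and kept the call in 4 of the 6 fits that left out a library. For HLA-DRA, HLA-DRB1, CIITA and HLA-DMA quizartinib replicate 1 was the lowest of its group. Of 31 measured interferon response genes 8 rose and none fell (median 0.54). That count was 5 without quizartinib replicate 1 or 2, 4 without vehicle replicate 3 and 10 with the replicate block. STAT2 was at 135, 159.5 and 157 CPM in the quizartinib libraries and at 53.3, 83.7 and 44.8 CPM in the vehicle libraries. STAT2 is part of the complex that type I interferon activates. For STAT2 the log2 fold change was 1.31 ± 0.25 (SE, n = 3 per group, adjusted p = 6.41e-04). SAMD9L and GBP2, both interferon-induced, had log2 changes of 1.83 and 1.52 and were called in 2 and 3 of the 6 fits that left out a library.

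Of 47 granule and phagocyte genes 7 rose and none fell (median 0.51), and 4 rose without vehicle replicate 1. With the replicate block 12 rose and 1 fell. Levels of CSF1R were 109.8, 143 and 113 CPM in the quizartinib libraries and 27.5, 53.2 and 24.7 CPM in the vehicle libraries. CSF1R is the receptor for macrophage colony-stimulating factor. CSF1R rose by 1.80 on the log2 scale (SE 0.28, adjusted p = 5.89e-05). For CD36 the values were 20.6, 33.8 and 27.5 CPM with quizartinib and 4.29, 9.31 and 6.14 CPM with vehicle. CD36 is a scavenger receptor of monocytes. CD36 thus had a log2 fold change of 2.05 ± 0.36 (SE, adjusted p = 3.27e-04). TYROBP, an adaptor of myeloid receptors, and CSF3R, the granulocyte colony-stimulating factor receptor, rose by 1.10 and 1.06 (log2) and kept the call in 4 and 5 of the 6 fits that left out a library. Of 24 myeloid transcription factors 3 rose and none fell (median 0.17), RUNX3 (94.7, 94.4 and 122 against 52.4, 54.3 and 49.2 CPM), MEIS1 (73.5, 80.3 and 81.1 against 46.0, 50.2 and 42.4 CPM) and CEBPB (77.0, 77.7 and 122 against 50.6, 65.1 and 57.9 CPM), while 1 rose without vehicle replicate 3, and 5 rose and 1 fell with the block. MEIS1 was also the 1 called gene of 12 measured AML blast markers (median 0.19), of which 0 were called without vehicle replicate 3, and 3 without quizartinib replicate 3 or with the block. Among all genes 5.46% were called higher, so the small counts of myeloid transcription factors and blast markers do not set these lists apart.

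Of 21 cytokine receptor genes 7 rose and none fell (median 0.52), and 4 rose without vehicle replicate 1 and 9 with the replicate block. With vehicle IL10RA stood at 19.2, 27.1 and 12.4 CPM, and with quizartinib at 70.2, 74.6 and 71.4 CPM. IL10RA is the ligand-binding chain of the interleukin 10 receptor. For IL10RA the log2 fold change was 1.88 ± 0.36 (SE, n = 3 per group, adjusted p = 6.68e-04). IL13RA1, a chain of the interleukin 4 and 13 receptors, was at 78.6, 67.1 and 51.9 CPM against 35.5, 36.2 and 26.2 (log2 fold change 1.01 ± 0.19, adjusted p = 4.16e-04). Of 19 chemoattractant and adenosine family receptors 4 rose and 1 fell (median 0.70), with 7 higher without vehicle replicate 2, 2 higher without quizartinib replicate 2 or vehicle replicate 3, and 9 higher with the replicate block. FPR1, the formyl peptide receptor, was at 70.3, 79.1 and 61.9 CPM against 22.8, 40.8 and 21.6 (log2 fold change 1.31 ± 0.37, adjusted p = 0.0154). C5AR2, a receptor for complement C5a, and CX3CR1, the fractalkine receptor, rose by 1.80 and 1.48 on the log2 scale, and the sphingosine 1-phosphate receptor S1PR3 fell by 0.90. CXCR4 gave 157, 167 and 142 CPM in quizartinib replicates 1 to 3 and 94.9, 109 and 84.1 CPM in vehicle replicates 1 to 3. CXCR4 is the receptor for the stromal chemokine CXCL12. CXCR4 rose by 0.70 on the log2 scale (SE 0.16, adjusted p = 0.00456).

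For the NF-kB response 5 of 29 genes rose and 2 fell (median 0.26), against 5.46% higher and 6.84% lower among all genes. Without quizartinib replicate 2 or 3, 3 rose, and without vehicle replicate 3, 2 rose. The 2 that fell became 1 without quizartinib replicate 1, vehicle replicate 2 or vehicle replicate 3, and 4 with the replicate block. TNF was at 7.96, 9.71 and 13.2 CPM in the quizartinib libraries and at 23.3, 23.4 and 43.3 CPM in the vehicle libraries. TNF is an inflammatory cytokine. TNF thus had a log2 fold change of -1.55 ± 0.35 (SE, adjusted p = 0.00299). Levels of BCL3 were 215, 170.4 and 369.9 CPM in the quizartinib libraries and 70.5, 69.7 and 121 CPM in the vehicle libraries. BCL3 is a nuclear partner of NF-kB p50. For BCL3 the log2 fold change was 1.53 ± 0.31 (SE, n = 3 per group, adjusted p = 0.00104). TNFAIP2 rose by 1.31 and TRAF1, at low levels (2.18, 4.19 and 4.65 against 0.846, 1.21 and 0.315 CPM), by 2.22 on the log2 scale. The NF-kB subunit REL and the adhesion molecule ICAM1 rose by 1.20 and 0.88, and CD83, a marker of activated antigen-presenting cells, fell by 0.85, each called in at most 3 of the 6 fits that left out a library. Of 39 lysosome and autophagy genes 8 rose and none fell (median 0.43). That count was 2 without quizartinib replicate 2, 3 without quizartinib replicate 1 or vehicle replicate 3, 4 without vehicle replicate 1, 5 without quizartinib replicate 3 and 15 with the block. For GABARAPL1 the values were 34.5, 41.5 and 30.7 CPM with quizartinib and 9.05, 16.1 and 12.5 CPM with vehicle. GABARAPL1 is an autophagosome protein. GABARAPL1 rose by 1.51 on the log2 scale (SE 0.29, adjusted p = 6.79e-04). NEU1 (0.94), TPP1 (0.85) and WIPI1 (0.84, called in none of the fits that left out a library) also rose on the log2 scale.

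**Figure D2:**
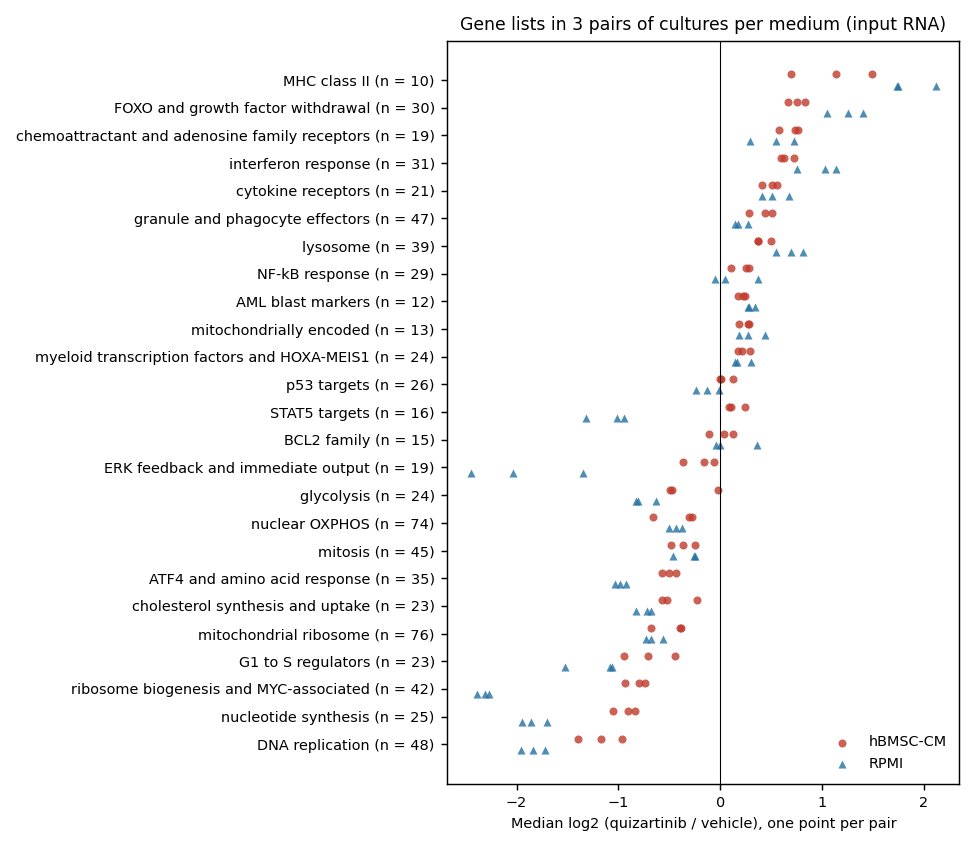
Median log2 ratio of quizartinib to vehicle over the measured genes of 25 lists (rows, number of genes in brackets), 1 point for each of 3 pairs of input libraries with the same replicate number, in hBMSC-CM (circles) and RPMI (triangles). The DNA replication points lie between -1.40 and -0.96 in hBMSC-CM, and the ERK and STAT5 points of hBMSC-CM lie near 0 while those of RPMI lie between -2.45 and -0.95.

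Of 23 measured genes on the FLT3 axis 5 fell (ETV4, CDC6, E2F1, MCM5 and CCND2) and 1 rose (SOCS3), or 5 and 3 with the replicate block, with a median of 0.01 (CCND1 was below the filter). FLT3 itself was at 65.0, 61.5 and 32.6 CPM with quizartinib and 61.3, 50.7 and 27.6 with vehicle, which overlap (log2 fold change 0.19 ± 0.26, adjusted p = 0.690). Of 16 measured STAT5 targets 3 rose (BCL6, SOCS3 and SOCS1) and 1 fell (CCND2), with a median of 0.10, and 4 rose with the replicate block. That list does not mark whether STAT5 raises or lowers a gene, so these counts are no measure of STAT5 output. BCL6 is also on the FOXO list and was counted there. With vehicle SOCS3 stood at 47.4, 44.5 and 58.4 CPM, and with quizartinib at 128, 114 and 154 CPM. SOCS3 restrains JAK and STAT signaling from cytokine receptors. SOCS3 thus had a log2 fold change of 1.40 ± 0.23 (SE, adjusted p = 1.51e-04). PIM1, a STAT5-induced kinase, was at 257, 186 and 252 CPM with quizartinib and 192, 127 and 151 with vehicle. It missed the threshold (log2 0.56, adjusted p = 0.0969) and was called higher with the replicate block (adjusted p = 0.0281). PIM2 had 40.1, 40.3 and 37.6 against 27.6, 27.9 and 27.0 CPM with no overlap, yet was called in neither fit (adjusted p = 0.168, and 0.0625 with the block). CISH (83.8, 66.7 and 82.6 against 74.1, 55.6 and 75.5 CPM) and SOCS2 (147, 112 and 114 against 109, 87.2 and 89.1 CPM) were not called.

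Of 19 measured genes of ERK feedback and immediate output 1 rose and 1 fell (median -0.17), near the 5.46% higher and 6.84% lower among all genes. ETV4 gave 2.99, 2.95 and 4.16 CPM in quizartinib replicates 1 to 3 and 20.4, 12.2 and 23.3 CPM in vehicle replicates 1 to 3. ETV4 is an ETS factor induced by ERK. For ETV4 the log2 fold change was -2.47 ± 0.45 (SE, n = 3 per group, adjusted p = 4.07e-04). Its values did not overlap, but it shares exon sequence with DHX8 on the opposite strand. FOS was at 49.8, 46.3 and 28.2 CPM in the quizartinib libraries and at 23.1, 25.3 and 12.8 CPM in the vehicle libraries. FOS is a subunit of AP-1. FOS rose by 1.02 on the log2 scale (SE 0.25, adjusted p = 0.00547). The call of FOS was lost without vehicle replicate 3. ETV5 had 17.4, 12.6 and 12.3 CPM with quizartinib and 27.3, 22.1 and 24.7 with vehicle, apart but not called (log2 fold change -0.81 ± 0.38, adjusted p = 0.161). EGR1 (71.5, 33.7 and 27.0 against 119, 36.9 and 62.3 CPM), FOSL1 (13.2, 12.7 and 34.2 against 25.1, 25.2 and 35.6 CPM), DUSP6 (29.5, 27.4 and 48.6 against 31.2, 26.4 and 30.7 CPM) and SPRY4 (1.48, 2.43 and 3.10 against 1.93, 3.38 and 2.55 CPM) overlapped between groups and were not called.

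**Figure D3:**
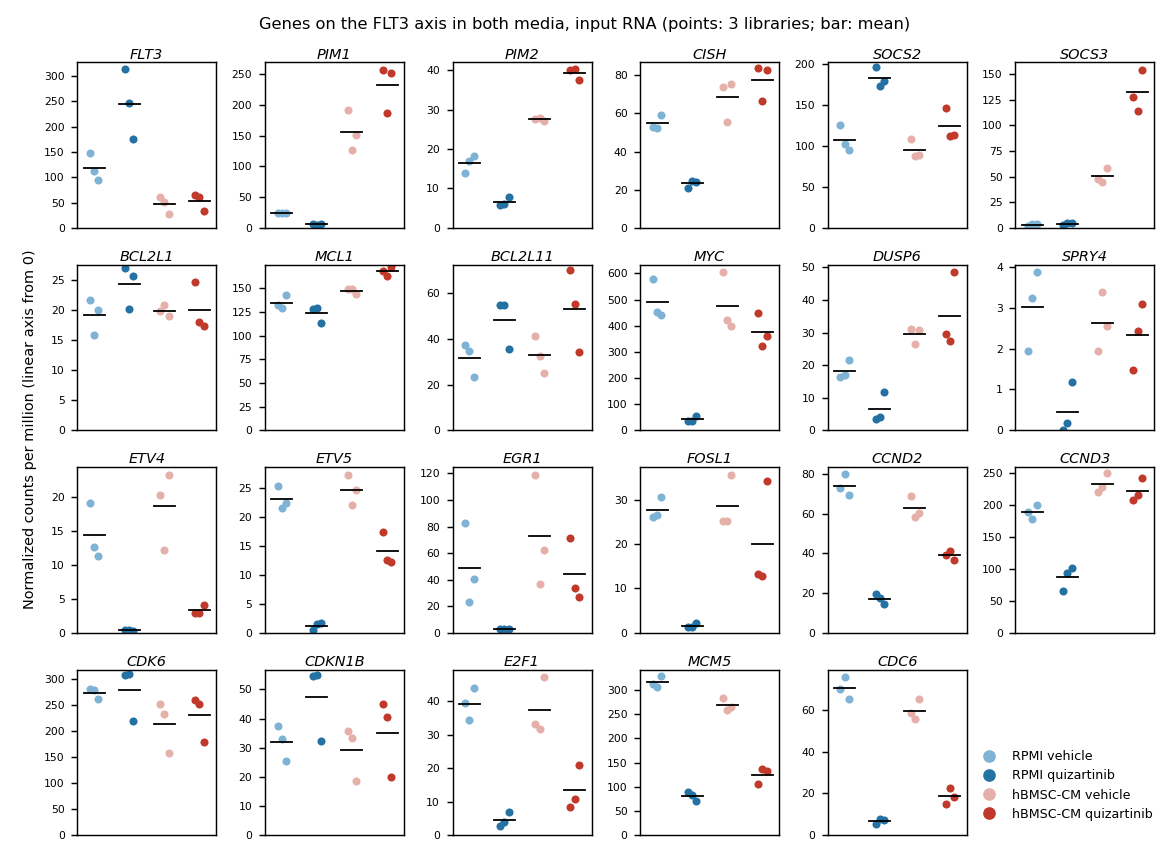
Normalized CPM (vertical axes, linear from 0) of 23 genes on the FLT3 axis in 12 input libraries, with 3 points per group and a bar at the mean, in the order RPMI vehicle, RPMI quizartinib, hBMSC-CM vehicle, hBMSC-CM quizartinib. MYC was at 35.2 to 56.3 under quizartinib in RPMI and at 322 to 449 under quizartinib in hBMSC-CM.

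The 12 largest rises and 12 largest falls were taken among genes called in every fit that left out 1 library, with values that did not overlap and 10 CPM or more on average in the higher group, so their sizes are those of a selected set. The rises ran from 2.02 to 4.24 and the falls from -2.61 to -2.06 (log2). Levels of COL1A1 were 4.05, 18.0 and 14 CPM in the quizartinib libraries and 0.613, 0.734 and 0.551 CPM in the vehicle libraries. COL1A1 encodes type I collagen, and its gain of 4.24 (SE 0.76) began from 21 to 23 counts per vehicle library. The stromal list summed without COL1A1 was 158 to 189 CPM with quizartinib and 151 to 163 with vehicle, and COL1A1 was also higher with quizartinib in RPMI, which held no stromal medium (8.31, 33.0 and 20.3 against 0.151, 2.35 and 0.338 CPM). Among stromal markers below the filter, COL6A1 had 8 to 90 counts per quizartinib library against 0 to 15 with vehicle, COL6A2 0 to 92 against 0 and SPARC 2 to 17 against 0, while COL1A2 (0 to 33 against 0 to 28) and FN1 (8 to 21 against 17 to 28) overlapped and COL3A1 had no count in any of the 6 libraries. The part of such cells in the rise of COL1A1 was not tested. TAGLN was the other called stromal marker (5.40, 5.49 and 5.98 against 1.34, 3.70 and 3.28 CPM), in 2 of the 6 fits that left out a library. For LILRB3 the values were 15.8, 13.3 and 19.2 CPM with quizartinib and 2.66, 4.27 and 2.47 CPM with vehicle. LILRB3 is an inhibitory receptor of myeloid cells. LILRB3 thus had a log2 fold change of 2.36 ± 0.55 (SE, adjusted p = 0.00405). With vehicle DPEP2 stood at 2.25, 5.96 and 2.65 CPM, and with quizartinib at 13.6, 18.1 and 23.2 CPM. DPEP2 cleaves leukotriene D4. For DPEP2 the log2 fold change was 2.34 ± 0.33 (SE, n = 3 per group, adjusted p = 1.70e-05). ISG20 gave 18.3, 18.3 and 16.4 CPM in quizartinib replicates 1 to 3 and 2.04, 4.69 and 4.10 CPM in vehicle replicates 1 to 3. ISG20 is an interferon-induced exonuclease. ISG20 rose by 2.29 on the log2 scale (SE 0.55, adjusted p = 0.00482). SERPINF1 was at 38.5, 77.5 and 49.5 CPM in the quizartinib libraries and at 7.27, 20.8 and 9.82 CPM in the vehicle libraries. SERPINF1 encodes the secreted factor PEDF. SERPINF1 thus had a log2 fold change of 2.13 ± 0.49 (SE, adjusted p = 0.00393). PRDM1, the repressor BLIMP1, was at 9.06, 8.77 and 15.5 CPM against 2.10, 4.85 and 1.16 (log2 fold change 2.04 ± 0.46, adjusted p = 0.00311). VWA5A (11.1, 13.8 and 9.43 against 1.75, 4.05 and 0.578 CPM, log2 2.44) and TRANK1 (9.89, 15.3 and 9.61 against 1.75, 5.71 and 0.630 CPM, log2 2.11) completed the rises with HLA-DRA, BMF, CD36 and YPEL3. In VWA5A and TRANK1 vehicle replicate 3 was the lowest library.

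Levels of SLC29A1 were 22.4, 26.0 and 24.4 CPM in the quizartinib libraries and 119, 90.6 and 98.0 CPM in the vehicle libraries. SLC29A1 is the equilibrative nucleoside transporter ENT1. For SLC29A1 the log2 fold change was -2.08 ± 0.34 (SE, n = 3 per group, adjusted p = 1.14e-04). For GAL the values were 11.2, 13.2 and 13.1 CPM with quizartinib and 50.1, 47.1 and 79.2 CPM with vehicle. GAL encodes the neuropeptide galanin. GAL fell by 2.23 on the log2 scale (SE 0.25, adjusted p = 1.20e-06). With vehicle NME1 stood at 35.7, 53.3 and 106 CPM, and with quizartinib at 10.9, 13.9 and 21.8 CPM. NME1 shares exons with the NME1-NME2 readthrough gene, and vehicle replicate 3 held its highest value. NME1 thus had a log2 fold change of -2.07 ± 0.40 (SE, adjusted p = 7.26e-04). BATF3 gave 2.25, 1.90 and 3.06 CPM in quizartinib replicates 1 to 3 and 9.78, 9.25 and 20.6 CPM in vehicle replicates 1 to 3. BATF3 is an AP-1 family factor. For BATF3 the log2 fold change was -2.47 ± 0.46 (SE, n = 3 per group, adjusted p = 4.80e-04). ACOT7 was at 18.9, 13.8 and 18.2 CPM in the quizartinib libraries and at 65.1, 63.1 and 84.1 CPM in the vehicle libraries. ACOT7 is an acyl-CoA thioesterase. ACOT7 fell by 2.06 on the log2 scale (SE 0.31, adjusted p = 3.63e-05). MAPK12, a p38 kinase, was at 7.10, 6.40 and 8.41 CPM against 24.9, 26.3 and 40.9 (log2 fold change -2.07 ± 0.27, adjusted p = 6.20e-06), and TEDC2, of the tubulin delta and epsilon complex, at 3.18, 4.11 and 5.80 against 18.5, 14.8 and 33.7 (log2 fold change -2.36 ± 0.30, adjusted p = 3.85e-06). NUDT8 (5.78, 6.07 and 12.0 against 24.9, 28.7 and 66.1 CPM, log2 -2.34), GLB1L2 (1.16, 2.15 and 1.95 against 8.67, 9.50 and 12.2 CPM, log2 -2.53) and DDN (2.18, 1.57 and 3.23 against 11.4, 10.5 and 14 CPM, log2 -2.37) fell with STC2 and ETV4. In the annotation (GENCODE v44, GRCh38) SLC29A1 lies at chr6:44219553-44234142 (plus strand), GAL at chr11:68683779-68691175 (plus strand), BMF at chr15:40087890-40108892 (minus strand), COL1A1 at chr17:50184101-50201632 (minus strand) and ETV4 at chr17:43527844-43579620 (minus strand), all protein-coding genes. Exons of 9 of the 24 overlap an annotated gene on the opposite strand, among them BMF, YPEL3, COL1A1, DPEP2 and TEDC2.

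**Figure D4:**
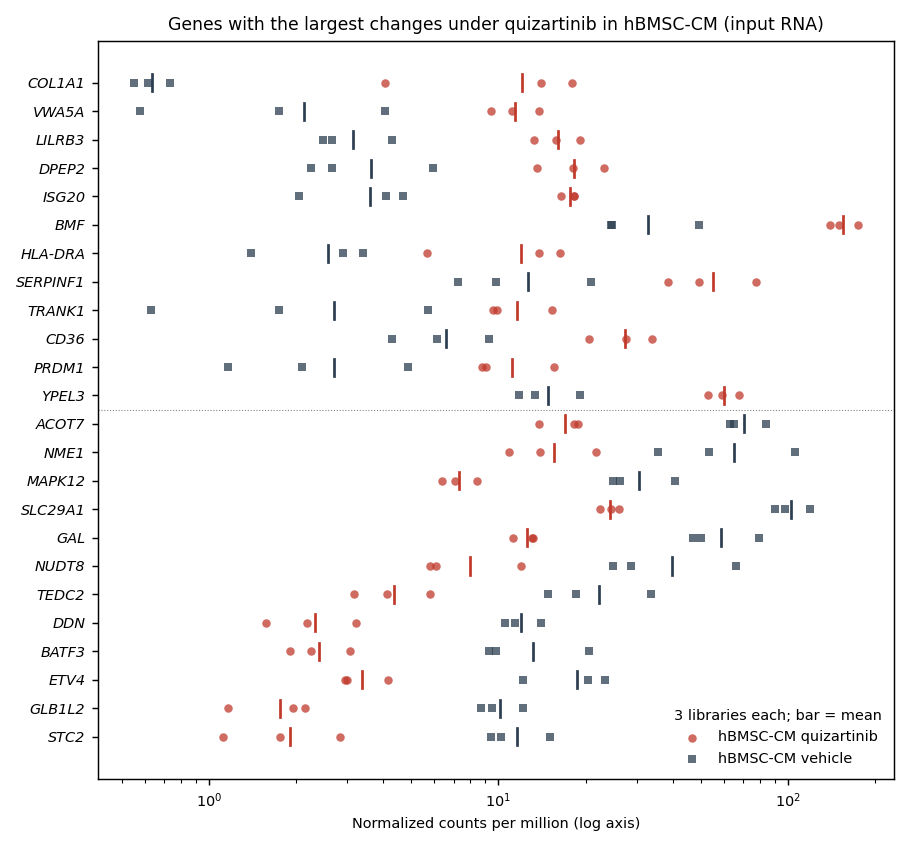
Normalized CPM (log axis) of the 12 genes with the largest rises (above the dotted line) and the 12 with the largest falls under quizartinib in hBMSC-CM, with 3 quizartinib (circles) and 3 vehicle (squares) input libraries each and a bar at each group mean. In every row the groups are apart, as the choice of genes required.

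The response in RPMI was set beside that in hBMSC-CM. In RPMI, which shares no library with the hBMSC-CM comparison, quizartinib changed 4477 genes (34.6%; 16.6% higher and 18.0% lower). Of the 1591 genes called in hBMSC-CM, 1472 (92.5%) were called in the same direction in RPMI, where they made up 32.9% of the calls, 118 were not called, and 1, TLE3, was called in the opposite direction. TLE3, a corepressor, was named after its values were seen: it had 85.2, 84.4 and 91.2 CPM against 59.2, 64.2 and 55.5 in hBMSC-CM and 28.9, 37.7 and 33.7 against 46.2, 48.8 and 44 in RPMI. Of all genes tested 81.9% had the same sign in both media. The median change was -0.99 in hBMSC-CM and -1.58 in RPMI over the 885 genes that fell in hBMSC-CM, and 1.00 and 1.35 over the 706 that rose. These genes were chosen on the first value of each pair.

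The test of the difference between media called 254 genes (1.96%), 231 with a more positive value in hBMSC-CM (1.79%) and 23 with a value more negative there (0.178%). It uses the libraries of both comparisons, whose values are set side by side. Over the 231 the median log2 change was -2.43 in RPMI and -0.79 in hBMSC-CM, and over the 23 it was 2.98 and 0.94. With the replicate block 455 genes were called, and 170 to 243 when 1 of the 12 cultures was left out.

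The FLT3 axis held 12 of the called differences among its 23 genes, all more positive in hBMSC-CM. In RPMI MYC was at 35.2, 36.5 and 56.3 CPM with quizartinib and 577, 453 and 441 CPM with vehicle, and in hBMSC-CM at 449, 322 and 362 and 605, 422 and 399 CPM. The RPMI values fell into separate ranges, and those of hBMSC-CM overlapped. The change of MYC was -3.52 in RPMI and -0.33 in hBMSC-CM, a difference of 3.19 ± 0.43, adjusted p = 1.26e-05. In RPMI PIM1 was at 6.25, 5.39 and 6.35 CPM with quizartinib and 24.5, 24.5 and 23.9 CPM with vehicle, and in hBMSC-CM at 257, 186 and 252 and 192, 127 and 151 CPM. PIM1 fell by 2.02 in RPMI, was 0.56 in hBMSC-CM, and differed by 2.58 ± 0.33, adjusted p = 5.84e-06. In RPMI CISH was at 21.1, 24.6 and 24.1 CPM with quizartinib and 53.1, 52.3 and 59.2 CPM with vehicle, and in hBMSC-CM at 83.8, 66.7 and 82.6 and 74.1, 55.6 and 75.5 CPM. CISH fell by 1.24 there and differed by 1.42 ± 0.22, adjusted p = 1.19e-04. In RPMI EGR1 was at 2.52, 2.76 and 2.81 CPM with quizartinib and 82.5, 23.0 and 40.5 CPM with vehicle, and in hBMSC-CM at 71.5, 33.7 and 27.0 and 119, 36.9 and 62.3 CPM. EGR1 differed by 3.45 ± 0.75, adjusted p = 0.00661, FOSL1 by 3.61 ± 0.78, adjusted p = 0.00651 and ETV5 by 3.49 ± 0.56, adjusted p = 2.05e-04, each having fallen by over 4 on the log2 scale in RPMI. ETV4 fell in both media, at 0.411, 0.354 and 0.327 CPM against 19.1, 12.7 and 11.3 in RPMI, with a difference of 2.81 ± 0.67, adjusted p = 0.0147. PIM2, CCND2, CCND3, E2F1 and CDC6 differed by 1.84, 1.43, 1.05, 1.60 and 1.69. SOCS3 had 2.99, 4.88 and 4.72 CPM in RPMI with quizartinib and 2.07, 3.62 and 3.25 with vehicle, and the difference between media was not called for it (0.90 ± 0.34, adjusted p = 0.242), nor for BCL2L11 (0.08 ± 0.37, adjusted p = 0.998).

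Lists differed in how many of their genes passed this test. Of ribosome biogenesis genes 28 of 42 were more positive in hBMSC-CM, against 1.79% of all genes, with a median of -2.36 in RPMI and -0.79 in hBMSC-CM. Of DNA replication genes 6 of 48 were (GINS2, CDC6, MCM6, MCM4, FEN1 and CHAF1A), with medians of -1.74 and -1.18. ERK output (6 of 19, medians -1.68 and -0.17) and STAT5 targets (6 of 16, medians -1.16 and 0.10) held further called differences, which beyond the FLT3 axis were SPRED1 (2.29), an inhibitor of RAS signaling, and the early response gene IER3 (2.56). For nucleotide synthesis 5 of 25 were called, CTPS1, CAD, DHODH, UMPS and PRPS1, of which CAD, DHODH and UMPS make pyrimidines and CTPS1 makes CTP. On the ATF4 list 4 of 35 were called, the amino acid carriers SLC7A1 (2.93), SLC7A5 (2.74) and SLC1A5 (1.70) and the folate enzyme MTHFD2 (1.51). SLC7A5, a chain of the leucine carrier LAT1, was at 23.0, 30.2 and 27.3 CPM with quizartinib and 492, 377 and 420.4 with vehicle in RPMI, and at 102, 119 and 145 and 305, 283 and 286 in hBMSC-CM. Mitosis and oxidative phosphorylation genes held 0 called differences of 45 and 0 of 74, beside 1.96% of all genes, so the 0 does not set these lists apart. In the other direction 2 of 30 FOXO genes were more negative in hBMSC-CM. SRM had 24.6, 19.5 and 21.0 CPM with quizartinib in RPMI against 309.9, 239.8 and 274 with vehicle and differed by 2.02 ± 0.32, adjusted p = 1.62e-04, and LYAR, MRTO4, LDHA, CDC25A and MRPS26 by 1.76, 1.84, 1.42, 1.44 and 1.03.

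The 4 largest differences in each direction, among called genes averaging 10 CPM or more in 1 of the 4 groups, were SLAMF8, FOSL1, ETV5 and EGR1, and MYADML2, SLC2A14, SOX13 and YPEL3. SLAMF8, a receptor of macrophages, was at 3.89, 5.57 and 4.74 CPM with quizartinib and 12.0, 12.5 and 11.4 with vehicle in hBMSC-CM, and in RPMI at 0, 0.253 and 0 against 15.4, 17.7 and 16.6. With 0 to 10 counts per quizartinib library in RPMI its fitted difference of 6.16 depends on the prior count. In hBMSC-CM alone it missed the threshold (adjusted p = 0.0753) and was called lower with the block (adjusted p = 0.0201). MYADML2 was at 10.4, 12.6 and 16.4 CPM in RPMI with quizartinib, and in hBMSC-CM at 0.193, 0.717 and 0 with the drug and 0, 0.159 and 1.21 with vehicle, which is 0 to 46 counts per library. SOX13 rose in both media, to 4.05, 6.40 and 2.08 CPM from 0.846, 2.26 and 1.84 in hBMSC-CM and to 19.8, 22.2 and 24.2 from 1.69, 2.41 and 1.29 in RPMI (difference -2.26 ± 0.54, adjusted p = 0.0150). SLC2A14, whose coding sequence is close to that of SLC2A3, is uncertain in its reads (difference -2.32 ± 0.43, adjusted p = 0.00132). YPEL3 (90.4, 96.8 and 126 against 4.97, 8.24 and 8.15 CPM in RPMI) and BMF (418, 458 and 501 against 25.1, 37.1 and 27.5 CPM in RPMI) rose in both media and less in hBMSC-CM, with differences of -1.85 ± 0.39, adjusted p = 0.00567 and -1.70 ± 0.45, adjusted p = 0.0324.

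**Figure D5:**
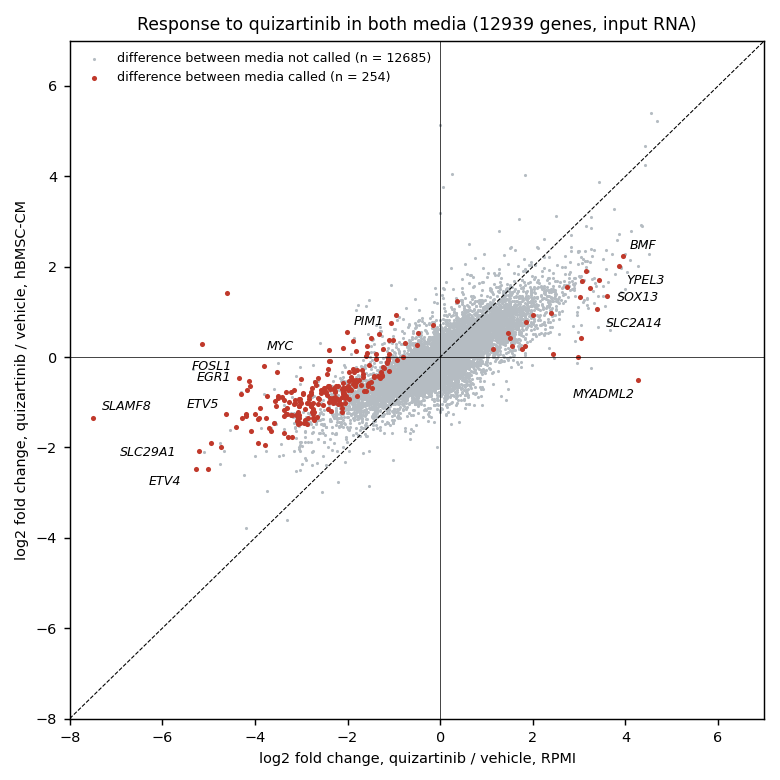
Log2 fold change under quizartinib of 12939 genes in RPMI (horizontal axis) and hBMSC-CM (vertical axis), input RNA, with the 254 genes whose difference between media was called in red and the line of equal change dashed. Most red points lie left of 0 and above that line, as for MYC, PIM1 and ETV5.

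Quizartinib on top of everolimus was also examined, as combo against everolimus in hBMSC-CM, from 6 other libraries. There 1437 genes were called (11.1%; 3.56% higher and 7.54% lower). Of the 1591 genes called without everolimus, 924 (58.1%) were called in the same direction, which is 64.3% of the calls with everolimus, and 0 in the opposite one. Of those that fell 71.6% were called again and of those that rose 41.1%, and 98.7% of the 1591 had the same sign, against 80.0% of all genes. The everolimus input libraries varied less among themselves than the other input groups used here (chi-square per degree of freedom 4.78 to 6.90 between pairs, against 26.1 to 185), while the fit shares 1 estimate of spread. RPMI combo and the polysome groups were not measured in this way. Everolimus replicate 1 held 3.67% mitochondrial reads, against 7.05% to 9.27% in replicate 1 of the other input groups used. Deviations of same-numbered combo and everolimus libraries correlated at -0.02, -0.05 and -0.02. The part of such differences between groups of libraries in this comparison was not tested. Of 48 DNA replication genes 34 fell in each of the comparisons, counted separately, with medians of -1.18 without and -1.08 with everolimus, and of ribosome biogenesis genes 33 of 42 fell with everolimus (median -1.14). FOXO genes rose in 8 of 30 (median 0.69). All 12 of the largest falls and 11 of the 12 largest rises were called again, HLA-DRA being the exception (log2 0.71, adjusted p = 0.395), and no MHC class II gene was called (median 0.73). A direct test of the difference in the quizartinib effect with and without everolimus called 0 genes with edgeR (213 at an unadjusted p under 0.05, 1.65% of genes; 2 with DESeq2 and 0 with limma voom).

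In heavy polysome libraries of the same cultures no gene passed the test of a change beyond that of total RNA. Polysome change relative to input change was called for 0 genes with edgeR, and for 0 with DESeq2 and limma voom (288 at an unadjusted p under 0.05, 2.23%). These fits take the polysome and input libraries of a culture as independent, so the 0 does not show that no message shifted. Over the 12 largest rises the relative value ran from -0.70 to 1.38 (median 0.05, log2) and over the 12 largest falls from -0.32 to 0.68 (median 0.10), beside a median of 0.10 over all genes. It was 0.16 for DNA replication genes, -0.06 for ribosome biogenesis genes and 0.19 for oxidative phosphorylation genes.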

How the data were processed

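Input RNA of MOLM-13 cultures was compared. Poly(A)-selected paired-end libraries were aligned to hg38 with STAR 2.6.0a (per the submitters' processing notes), and the authors deposited raw counts per gene, with no normalization. The strand setting of the counting is not given in the sources used here. Total counts of the 6 libraries were 19.4 to 36.0 M. Reads carried no molecular identifiers, so depth covers counting error only. Rows sharing a name were summed (150 names). The 12939 genes averaging 1 CPM or more over all libraries were tested (99.8% of counts).

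The test was edgeR 4.0.16 (quasi-likelihood, robust, TMM factors, R 4.3.3) with 14 group means over all 42 libraries and no block, with Benjamini-Hochberg adjustment over all genes. Differences between effects were contrasts of the same fit. The fit was tested on simulated counts. Deviations from the group means of same-numbered quizartinib and vehicle libraries correlated at 0.62, 0.41 and 0.57 in hBMSC-CM and 0.57, 0.37 and 0.40 in RPMI, so the numbers in the labels were taken to pair them. The main fit leaves that pairing out, with 1591 genes called in hBMSC-CM against 2678 with the replicate block. Alternatives were limma 3.58.1 (voom), DESeq2 1.42.0, other scalings and filters, fits on the groups compared, replicate blocks and leaving out each culture with its input and polysome libraries.

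Members and gene lists (29, from general knowledge) were chosen with earlier results of these data known. Genes named were the 12 largest rises and falls that were called in every fit without 1 library, had at least 10 CPM and did not overlap, the FLT3 axis list, up to 4 called genes of each list by size, and the 4 largest differences between media in each direction. In addition 25 genes were named after their values were seen, TLE3, PGAM1, ENO1, HLA-DQB1, CXCR4, REL, ICAM1, CD83, CTPS1, CAD, DHODH, UMPS, PRPS1, MTHFD2, SLC7A5, SLC1A5, SLC7A1, SPRED1, IER3, MCM4, FEN1, CHAF1A, MCM6, CDT1 and UTP20. CDKN1C, CDC25B and the stromal markers given by their counts were also chosen after their values were seen. Promoters are RefSeq sequences (GRCh38.p14), matched by symbol to 8943 of the 12939 genes (69.1%), and gene positions are from GENCODE for GRCh38.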

Additional observations from a re-analysis of the deposited data

Results flagged for a closer look

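The effect of quizartinib differed between hBMSC-CM and RPMI for 254 genes by the interaction test, and 45 genes named in the text are among them, 38 of them more positive in hBMSC-CM and 7 more negative there. All 45 were called with the replicate block, and 30 of the 45 in each of the 12 fits that left out 1 of the 12 cultures.

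Differences are log2 values of the hBMSC-CM effect minus the RPMI effect. Among genes of FLT3 signaling and growth they were 2.81 for ETV4, 2.58 for PIM1, 1.84 for PIM2, 1.42 for CISH, 3.19 for MYC, 3.49 for ETV5, 3.45 for EGR1, 3.61 for FOSL1, 1.43 for CCND2, 1.05 for CCND3, 2.29 for SPRED1 and 2.56 for IER3. Among genes of ribosome biogenesis, polyamine, nucleotide and amino acid supply they were 2.02 for SRM, 1.76 for LYAR, 1.84 for MRTO4, 1.03 for MRPS26, 1.42 for LDHA, 1.93 for CTPS1, 1.60 for CAD, 1.47 for DHODH, 1.25 for UMPS, 1.14 for PRPS1, 1.51 for MTHFD2, 2.74 for SLC7A5, 1.70 for SLC1A5 and 2.93 for SLC7A1. For cell cycle genes the values were 1.60 for E2F1, 1.69 for CDC6, 1.51 for GINS2, 1.44 for CDC25A, 1.69 for MCM4, 1.52 for FEN1, 1.10 for CHAF1A and 1.56 for MCM6. Single genes outside these groups were SLC29A1 (3.13), BATF3 (2.54), SLAMF8 (6.16) and TLE3 (1.01). More negative in hBMSC-CM were BMF (-1.70), YPEL3 (-1.85), TSC22D3 (-1.19), BCL3 (-1.70), MYADML2 (-4.76), SLC2A14 (-2.32) and SOX13 (-2.26).

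The calls of E2F1, TSC22D3 and CHAF1A held in 4 of the 12 fits that left out a culture, those of BMF and MCM6 in 5, those of BATF3, CDC6, MRPS26, BCL3, MYADML2 and DHODH in 6, that of CCND3 in 7, those of ETV4 and SOX13 in 10 and that of LYAR in 11.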

How the results depend on the processing

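For quizartinib against vehicle in hBMSC-CM the count of 1591 called genes was 1175 with only the groups compared and no block. It was 2678 with the replicate block, 3803 with the replicate block within fraction, and 5627 with the block and only the groups compared. When 1 culture was left out it was 929 to 1596. For RPMI the count of 4477 was 6017 with only the groups compared, 8166 with the block and only the groups compared, and 3647 to 4056 without 1 culture. For the difference between media the count of 254 was 415 with only the groups compared, 455 with the replicate block, 876 with the block within fraction, 2040 with the block and only the groups compared, and 170 to 243 without 1 culture. For combo against everolimus the count of 1437 was 3719 with only the groups compared, 2320 with the replicate block, 3290 with the block within fraction, 3792 with the block and only the groups compared, and 803 to 1302 without 1 culture. Correlations of same-numbered combo and everolimus libraries were -0.02, -0.05 and -0.02, so the numbers were not taken to pair them. The test of the effect with against without everolimus called 0 genes, 2 with DESeq2, 8 with no filter, 1 with the block within fraction, 2 with the block and only the groups compared, and 0 to 0 without 1 culture. The polysome count was 0 in every setting. The causes of these shifts were not tested.

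Values that changed direction in hBMSC-CM were of genes not called in that comparison. FLT3 was at -0.08 without vehicle replicate 3 and ranged from -0.08 to 0.44 over the fits that left out 1 library. BCL2L1 was at 0.00 with limma voom and with the block within fraction, and ranged from -0.17 to 0.10 (negative without quizartinib replicate 1, and at -0.03 without vehicle replicate 3). DUSP6 ranged from -0.05 (without quizartinib replicate 3) to 0.41, CDK6 from -0.08 (without vehicle replicate 3) to 0.26 and IER3 from -0.02 (without vehicle replicate 1) to 0.30. SPRY4 ranged from -0.42 to 0.08 (without quizartinib replicate 1, and at 0.06 without vehicle replicate 2). SPRED1 ranged from -0.34 to 0.32 (without vehicle replicate 1, and at 0.15 without quizartinib replicate 2). MYADML2 was at 0.21 with limma voom and 0.11 with the block and only the groups compared, and ranged from -2.07 to 2.05 (without vehicle replicate 3). The median of mitochondrially encoded genes, 0.18, ranged from -0.36 (without quizartinib replicate 1) to 0.87 (without vehicle replicate 1), with -0.05 without vehicle replicate 2 and -0.03 without vehicle replicate 3. Within same-numbered pairs that median was 0.18, 0.27 and 0.28. Replicate 1 held more mitochondrial reads in both arms, and these fits do not use the pairing.

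Over the named genes 2166 values under alternatives kept their direction and side of the threshold, 153 lost the call, 25 gained it and 15 changed direction. Of the list medians 422 moved by less than the spread between pairs, 39 moved by more and 3 changed direction. Voom, DESeq2, the other scalings and the filters kept the hBMSC-CM count between 1320 and 2061.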

Other observations

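Some genes that dividing cells are known to use stood near 0 in this table. Over all 42 libraries the mean count was 16.1 for NOP2 (a ribosomal RNA methyltransferase), 13.9 for PRC1 (a spindle midzone protein), 19.0 for RNASEH2A, 11.8 for CYP51A1 (an enzyme of cholesterol synthesis), 5.76 for ASNS (asparagine synthetase), 20.3 for NDUFA13 and 15.0 for NDUFV2 (subunits of respiratory complex I). These genes were below the filter and are in no count of list members tested. The cause was not tested.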
